A study of Mus musculus with 4 samples.

Results

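Septal and hypothalamic genes that were lower after stress are described here. They are a set of 7 genes (Igsf1, Baiap3, Ecel1, Hap1, Prkcd, Zic1 and Zic2) that was named by symbol, and all 7 were found among the 17778 genes of the table. The set was chosen because its members were lower in the stressed group, so the lower mean of each member is a description and carries no test. Messenger RNA was sequenced of both sides of the mPFC (medial prefrontal cortex, which is neocortex of the frontal lobe). The animals were C57BL/6 mice by the labels (C57BL/6J by the methods), male, and juvenile at the start. Mice of the CUMS group (2 libraries) had lived under chronic unpredictable mild stress, a schedule of changing mild stressors. They were taken from the minority of stressed mice that showed depression-like behavior in every test used, and stressed mice without such behavior were left out. Mice of the Control group (2 libraries) lived without these stressors. Neither group carried an engineered allele, and tissue was taken a day after the behavior tests. It is not stated whether a library came from 1 mouse.

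The values are 1 mean per gene and group in RPKM (reads per kilobase of gene at a fixed total of mapped reads), which can be compared between genes because they are per length. No value of a single library could be read, so the differences below have no replicate check. A library was estimated to hold 7385524 fragments in Control and 7440476 in CUMS, if 1 step between low values is 1 fragment in 1 library. These estimates lie below the read numbers that the methods give, for a reason that was not resolved, and a greater depth would narrow the intervals. Intervals given below are exact 95% intervals from these fragment numbers and cover counting error only. A gene was counted as lower or higher when its means differed by more than 1.5-fold. Markers of neocortical excitatory neurons were set beside the tissue label. Slc17a7 (635.39 and 791.26 RPKM, Control first here and below) and Camk2a (827.76 and 957.92 RPKM) were abundant in both groups. These genes cannot tell the mPFC from other neocortex or show that neighboring tissue was absent. Ppp1r1b, the most abundant of the striatal genes examined below, was at 191.08 and 170.415 RPKM.

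The septum and the hypothalamus are groups of subcortical nuclei that lie below and behind the mPFC. The septum links the hippocampus with the hypothalamus, and the hypothalamus controls hormones, feeding, body temperature and the response to stress. Many neurons there release neuropeptides from dense-core vesicles, and several of the 7 genes are best known from such neurons. Zic1 and Zic2 are transcription factors with zinc fingers that pattern the midline of the developing brain and stay on in septal neurons. Baiap3 and Hap1 act in the traffic of vesicles, Prkcd is a signaling kinase, Ecel1 is a membrane peptidase of neurons, and Igsf1 is a membrane glycoprotein whose loss causes central hypothyroidism.

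All 7 genes were lower in CUMS, by 1.59-fold in Hap1 to 5.39-fold in Igsf1. The median log2 ratio of CUMS over Control was -1.70 over the 7 genes and -0.02 over the 14257 genes that reached 0.5 RPKM in at least 1 group. All 7 genes passed this minimum and 5 of 7 were lower by more than 2-fold. Of the 14257 genes, 53.2% had a lower mean in CUMS, 4.41% were lower by more than 1.5-fold and 1.56% by more than 2-fold, while 2.78% were higher by more than 1.5-fold. Of the 9397 genes that reached 5 RPKM in a group, 1.28% were lower by more than 1.5-fold, 0.287% were lower by more than 2-fold and 0.319% were higher by more than 1.5-fold, but the members were picked from this contrast and nothing is read from their share. The counting interval of the ratio lay below 0 in 7 of 7 genes, but this share was not taken over all genes and nothing is read from it. In tissue RNA, fewer cells of a type and less RNA per cell cannot be told apart.

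**Figure D1:**
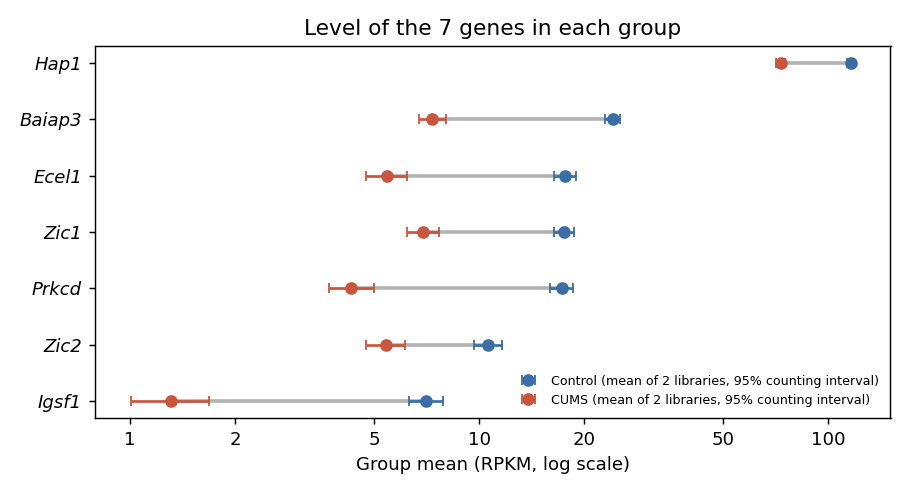
Group means of the 7 genes in RPKM on a log scale, with Control in blue and CUMS in red; each point is the deposited mean of 2 libraries and bars are 95% counting intervals. In every gene the CUMS mean lies left of the Control mean, and the gap is widest for Igsf1 (7.055 to 1.31 RPKM) and narrowest for Hap1 (115.88 to 73.03 RPKM).

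The levels of the 7 genes spanned a 16.4-fold range in Control. Hap1 stood highest at 115.88 RPKM, followed by Baiap3 at 24.135 RPKM. Ecel1 (17.63 RPKM), Zic1 (17.515 RPKM) and Prkcd (17.225 RPKM) came next, and their counting intervals overlapped, so that the order of these 3 genes is not resolved. Zic2 was at 10.625 RPKM and Igsf1 was lowest at 7.055 RPKM. In CUMS the order was Hap1 (73.03 RPKM), Baiap3 (7.345 RPKM), Zic1 (6.915 RPKM), Ecel1 (5.44 RPKM), Zic2 (5.405 RPKM), Prkcd (4.3 RPKM) and Igsf1 (1.31 RPKM). The CUMS interval of Prkcd (3.70 to 4.99 RPKM) lay below that of Zic1 (6.21 to 7.69 RPKM) and overlapped that of Ecel1 (4.75 to 6.21 RPKM). In Control, 95.6% of genes had a lower mean than Hap1 and 43.9% a lower mean than Igsf1, and in CUMS these shares were 92.4% and 13.6%. Without Hap1, the summed level of the other genes came to 94.2 RPKM in Control against 30.7 RPKM in CUMS. Of the 21 pairs of members, 15 had ratio intervals that did not overlap. These intervals leave out the spread between libraries, and no such share was taken over all genes. Whether the members differed in ratio was therefore not tested.

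Igsf1 (gene 209268, GRCm38, chromosome X, 49782536 to 49797907, minus strand) encodes immunoglobulin superfamily member 1. In the pituitary and hypothalamus it is needed for normal thyroid hormone control, and it was once thought to bind inhibin. Igsf1 had an estimated 325 fragments in Control (7.055 RPKM) and 61 in CUMS (1.31 RPKM). The log2 ratio was -2.43 (interval -2.84 to -2.03), and the CUMS mean was 18.6% of the Control mean. Among 9397 genes that reached 5 RPKM in at least 1 group, Igsf1 had the ratio of rank 2 from the lowest, and among all 14257 genes it had rank 30. Igsf1 passed this higher minimum through its Control mean alone, and the same holds for Prkcd. Genes of the activin and thyrotropin-releasing hormone (TRH) pathways were examined beside Igsf1. Of 12 such genes, 3 were lower by more than 1.5-fold and 0 were higher, with a median log2 ratio of 0.02. The 3 lower genes were Trh (6.055 and 2.51 RPKM), which encodes the hormone itself, Inhba (0.865 and 0.445 RPKM), an activin subunit, and Acvr2b (1.73 and 0.84 RPKM), an activin receptor. Inhba and Acvr2b are outside the naming rule and were named after their values had been seen, and the interval of Inhba, with 20 and 10 fragments, included 0 (-2.27 to 0.15). The inhibin subunit Inha was at 23.49 RPKM in Control and 25.8 RPKM in CUMS.

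Prkcd (gene 18753, chromosome 14, 30595353 to 30626414, minus strand) encodes protein kinase C delta, a kinase that is switched on by diacylglycerol without calcium. In the brain it marks neurons of the thalamus, the lateral septum and the central amygdala. Prkcd was at 17.225 RPKM in Control (710 fragments) and 4.3 RPKM in CUMS (179 fragments). The log2 ratio was -2.00 (interval -2.24 to -1.76), which was rank 4 from the lowest among the 9397 genes and rank 55 among the 14257. The other 8 kinases of the family were all expressed, and 0 of 8 passed 1.5-fold in either direction. Their median log2 ratio was 0.05, and Prkcq had the lowest ratio at -0.55. Prkcq, the theta form, was at 3.075 RPKM in Control and 2.1 RPKM in CUMS, with an interval of -0.91 to -0.17. Prkcb, the beta form, was at 95.4 and 105.365 RPKM, and Prkca, the alpha form, was at 21.505 and 20.395 RPKM. Prkcd was the only one of the 9 whose interval lay wholly beyond 1.5-fold.

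Ecel1 (gene 13599, chromosome 1, 87142874 to 87157085, minus strand) encodes endothelin-converting enzyme-like 1, also called DINE, a neuronal peptidase of the neprilysin family that injured neurons switch on. Ecel1 was at 17.63 RPKM in Control (710 fragments) and 5.44 RPKM in CUMS (221 fragments), a log2 ratio of -1.70 (interval -1.92 to -1.47). Of the 4 other family members that reached 0.5 RPKM, 2 were lower by more than 1.5-fold and 0 were higher. Ece2, which processes neuropeptides and endothelin, was at 13.755 RPKM in Control and 8.65 RPKM in CUMS, a log2 ratio of -0.67 (interval -0.86 to -0.48). Ece1, the main endothelin-converting enzyme, was at 15.42 and 15.465 RPKM, and its interval of -0.12 to 0.13 leaves no room for a 1.5-fold difference by counting error. Mmel1 (0.525 and 0.315 RPKM) rested on 23 and 14 fragments and its interval included 0. Neprilysin itself, Mme, was at 0.94 and 0.72 RPKM. Phex stayed below the minimum.

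Baiap3 (gene 545192, chromosome 17, 25242659 to 25256364, minus strand) encodes a relative of the Munc13 proteins, which prime vesicles for release, and serves the traffic of dense-core vesicles. Baiap3 was at 24.135 RPKM in Control (1656 fragments) and 7.345 RPKM in CUMS (508 fragments). Its log2 ratio was -1.72 (interval -1.86 to -1.57), 0.02 below that of Ecel1, which is within counting error. Of 5 expressed relatives, the Munc13 genes Unc13a, Unc13b and Unc13c and the CAPS genes Cadps and Cadps2, 0 passed 1.5-fold. Unc13c came nearest, at 1.82 RPKM in Control and 1.24 RPKM in CUMS (log2 ratio -0.55, interval -0.86 to -0.25). Unc13a, the main form at cortical synapses, was at 64.205 and 67.29 RPKM. Genes for the cargo and the processing enzymes of dense-core vesicles were examined too. Of 13 such genes 0 passed 1.5-fold, their median log2 ratio was 0.05 and their range was -0.35 to 0.32. Cpe, which trims prohormones, was at 1079.64 RPKM in Control and 1109.74 RPKM in CUMS.

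Hap1 (gene 15114, chromosome 11, 100347327 to 100356982, minus strand) encodes huntingtin-associated protein 1, an adaptor between vesicles and motor proteins that is abundant in hypothalamic neurons. It was by far the most abundant member, with 115.88 RPKM in Control (6176 fragments) and 73.03 RPKM in CUMS (3921 fragments). Its log2 ratio of -0.67 (interval -0.72 to -0.61) was the smallest in size among the 7 genes and ranked 86 from the lowest among the 9397 genes and 502 among the 14257. Of 14 genes for proteins known to bind or travel with Hap1, 0 passed 1.5-fold and the median log2 ratio was -0.0011 (0.014 with the median of all ratios set to 0). Kif5a, a kinesin motor, was at 558.08 and 546.52 RPKM, and Dctn1, of the dynactin complex, was at 147.735 and 146 RPKM. Ntrk2, the receptor of brain-derived neurotrophic factor, was at 113.78 RPKM in Control and 101.225 RPKM in CUMS.

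**Figure D2:**
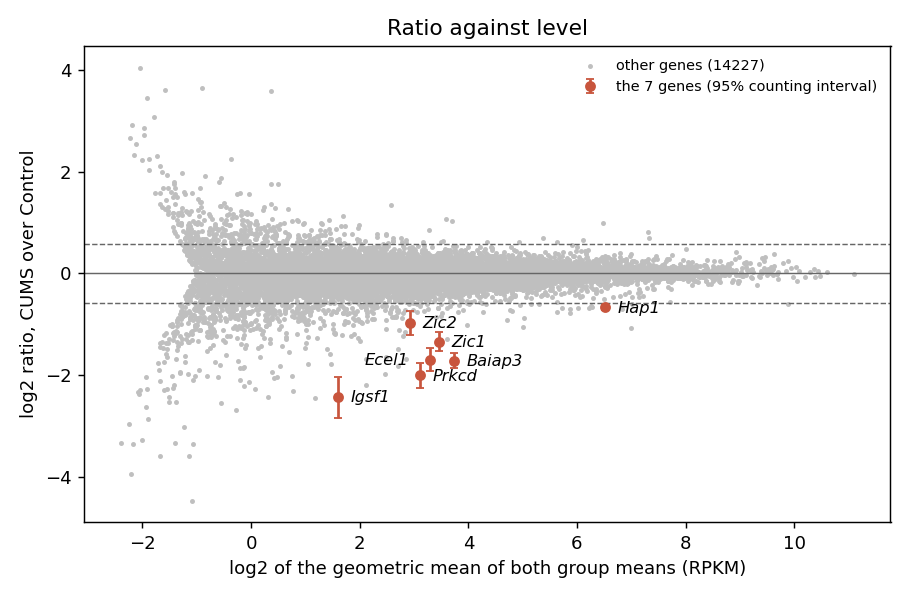
Log2 ratio of CUMS over Control against the log2 of the geometric mean of both group means (RPKM), for 14227 other genes in grey and the 7 genes in red with 95% counting intervals; genes listed at 0 in a group are left out and dashed lines mark 1.5-fold. Hap1 lies just beyond the lower line at -0.67, and Igsf1 lies farthest below it among the 7 genes at -2.43.

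Zic1 (gene 22771, chromosome 9, 91358058 to 91365768, minus strand) and Zic2 (gene 22772, chromosome 14, 122475384 to 122480328, plus strand) were the only members that belong to 1 gene family. Zic1 was at 17.515 RPKM in Control (867 fragments) and 6.915 RPKM in CUMS (345 fragments), a log2 ratio of -1.34 (interval -1.52 to -1.16). Zic2 was at 10.625 RPKM in Control (466 fragments) and 5.405 RPKM in CUMS (239 fragments), a log2 ratio of -0.98 (interval -1.21 to -0.75). The intervals of the pair overlapped. Zic2 was 1.97-fold lower and so lay just outside the 2-fold limit.

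Zic4 and Zic5, of the same family, were expressed at lower levels. Zic4 was at 1.775 and 0.955 RPKM, a log2 ratio of -0.89 (interval -1.38 to -0.42). Zic5 was at 0.86 and 0.57 RPKM, with 30 and 20 fragments and an interval of -1.49 to 0.27. Both were lower by more than 1.5-fold, against 4.41% of genes, but Zic5, at 1.51-fold, no longer passed when all ratios were shifted to a median of 0. Gli genes share the type of zinc finger. Of 5 Gli and Glis genes that reached 0.5 RPKM, Gli1 was lower by more than 1.5-fold (2.31 and 1.365 RPKM) and Glis1 was higher (0.49 and 0.74 RPKM, interval -0.24 to 1.46).

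Zic1 and Zic2 are alike in their zinc finger coding sequence, and the assignment of reads was therefore examined in GENCODE M21 transcripts. No run of 50 bases was shared by the pair, since 0 of 2391 such runs in the Zic2 transcript occurred in a transcript of another gene. In Zic1 41 of 5557 runs (0.738%) did, in Unc45a, Zic4 and Cd93. Only exact runs were counted, whereas the methods allowed mismatches in an aligned read, so these counts do not settle the assignment of every read. Zic1 and Zic4 lie head to head on opposite strands, with spans that overlap by 3398 bases and exons that share 60 bases. Reads in those 60 bases cannot be assigned without strand, and the use of strand was not stated. Baiap3 likewise shares 140 exonic bases with Tsr3 on the opposite strand, which is 2.74% of its exonic bases. The other 5 members share 0 exonic bases with another gene of GENCODE M21.

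**Figure D3:**
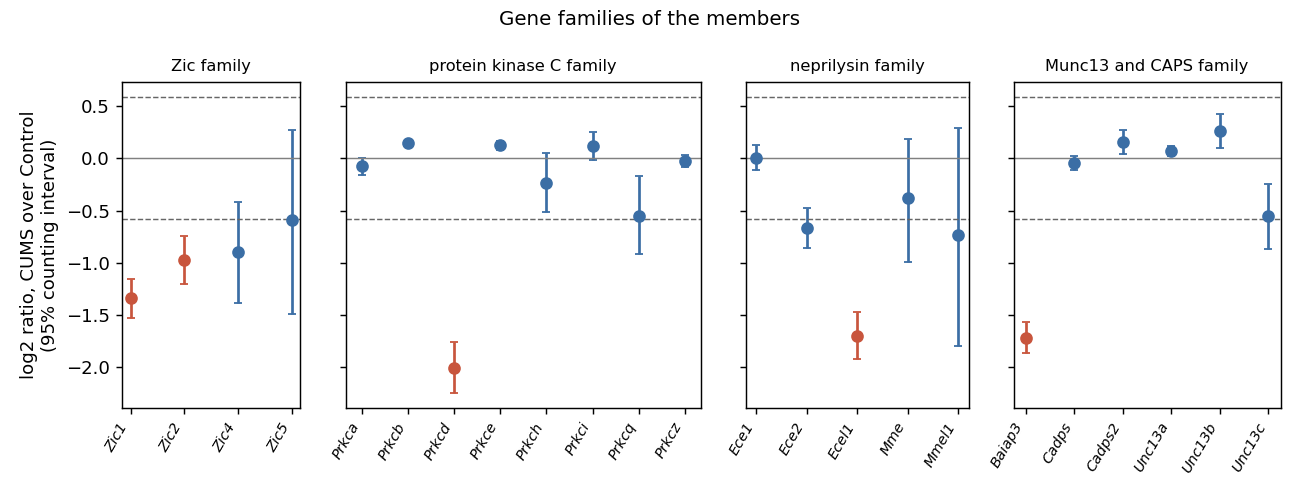
Log2 ratio of CUMS over Control with 95% counting intervals for genes of 4 families, with the chosen genes in red and their relatives in blue; dashed lines mark 1.5-fold. The Zic genes shown lie below 0 (-1.34 to -0.59), whereas Prkcd, Ecel1 and Baiap3 lie apart from most of their relatives.

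Promoters of the 7 genes, which had been chosen for their lower mean in CUMS, were also examined. RefSeq start sites (GRCm38.p6) gave windows for 6 of 7 genes, with 10 windows in all, and the 250 bases before each start were searched on both strands for 6 short motifs, whose share was also taken over the 32851 windows of all genes. The letters TATAAA, the core of the TATA box, were present in 12.4% of all windows. The letters CCAAT, bound by the nuclear factor Y complex, were present in 33.8%. GC boxes, spelled GGGCGG and bound by Sp1, were present in 32.7%. The full cyclic AMP response element, spelled TGACGTCA, was present in 1.55%. The core of the Zic motif, searched as CAGCAGG, was present in 8.44%, and the E-box, searched as CACGTG, was present in 6.02%. None of the 6 motifs was present in the first windows of more than 2 of the 6 genes. The first windows of Zic1 and Prkcd are shown because they held the most matches among first windows, and that of Igsf1 because it held the core of the Zic motif. They leave out bases that GENCODE places in an exon, read 5′ to 3′ on the minus strand, and carry matches in capitals. The positions are chr9:91365811-91366018 for Zic1, chr14:30626211-30626458 for Prkcd and chrX:49797750-49797995 for Igsf1.
Zic1 promoter: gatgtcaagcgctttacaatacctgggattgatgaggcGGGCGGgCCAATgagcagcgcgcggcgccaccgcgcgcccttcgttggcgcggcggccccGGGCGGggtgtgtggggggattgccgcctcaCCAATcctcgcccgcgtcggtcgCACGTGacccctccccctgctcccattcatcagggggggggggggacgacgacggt
Prkcd promoter: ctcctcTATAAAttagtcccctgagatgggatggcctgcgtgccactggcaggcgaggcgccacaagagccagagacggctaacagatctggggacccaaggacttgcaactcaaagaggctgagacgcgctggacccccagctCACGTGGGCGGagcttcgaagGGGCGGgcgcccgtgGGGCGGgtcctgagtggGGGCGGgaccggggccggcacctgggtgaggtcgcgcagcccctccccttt
Igsf1 promoter: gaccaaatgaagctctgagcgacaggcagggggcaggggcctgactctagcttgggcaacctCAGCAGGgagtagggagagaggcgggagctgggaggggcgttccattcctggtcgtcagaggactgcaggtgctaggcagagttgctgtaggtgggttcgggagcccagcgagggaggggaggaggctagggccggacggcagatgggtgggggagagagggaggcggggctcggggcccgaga
Zic1 held 2 CCAAT boxes, 2 GC boxes and 1 E-box in 250 bases. Prkcd held 4 GC boxes, 1 E-box that overlaps the first of them by 1 base, and 1 match to TATAAA at the end far from the start. The first window of Igsf1 held 1 core of the Zic motif and no other match, whereas its second window, at a start further inside the gene, held 3 CCAAT boxes and 3 GC boxes. Ecel1 held 1 match to CCAAT, which lies in bases that GENCODE places in an exon of Ecel1 (165 of the 250), and the windows of Baiap3 and Hap1 held 0 matches. Zic1 had 27 CpG pairs in 250 bases, against a median of 6 over all windows, Prkcd had 18 and Ecel1 had 4. These matches describe letters in these windows and are no sites of binding.

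Marker genes of other brain regions were set beside the members, without the members themselves. Their lists were drawn up with earlier results of these data known and are no independent evidence. Of 15 septal genes, 15 were lower by more than 1.5-fold (14 with the median of all ratios set to 0) and the median log2 ratio was -1.64, against -0.02 over all genes and 4.41% of genes lower. The interval lay below 0 in 14 of 15, but this share was not taken over all genes. Some of these genes reached 0.5 RPKM in Control alone, so they could only have a lower mean in CUMS. Zic4 and Zic5 belong to this list as well as to the Zic family. Nts, which encodes the peptide neurotensin of the lateral septum, was at 9.83 RPKM in Control and 3.155 RPKM in CUMS. Ngfr, a neurotrophin receptor of cholinergic neurons in the medial septum, was at 5.1 and 1.495 RPKM, and Trpc4, a cation channel of the lateral septum, was at 6.21 and 3.6 RPKM. The summed level of the list came to 45.4 RPKM in Control against 16.8 RPKM in CUMS, and no septal gene was listed at 0. The part of these genes in the values of the 7 members was not tested.

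Hypothalamic genes were less uniform. Of 31 in the table, 19 reached 0.5 RPKM, of which 12 were lower and 2 were higher by more than 1.5-fold, with a median log2 ratio of -1.27. Some of the lower genes, and Pmch of the higher ones, reached 0.5 RPKM in 1 group alone, which set their direction. Dlk1 (10.92 and 2.765 RPKM) and Peg10 (10.83 and 3.885 RPKM), both imprinted genes, and Zcchc12 (67.075 and 41.91 RPKM), a transcriptional regulator, were lower. Ndn, an imprinted gene of many neurons, was at 236.38 RPKM in Control and 191.17 RPKM in CUMS, and Resp18, a gene of peptide-secreting cells, was at 82.05 and 64.81 RPKM. The 2 higher genes, Kiss1 (4 and 12 fragments) and Pmch (5 and 8 fragments), were named after their values had been seen, and both intervals included 0. Genes at the edge of detection were named after their values had been seen. Agrp was listed at 0 in Control, and Otp, Hmx2, Hmx3 and Six6, which are transcription factors of the hypothalamus, were listed at 0 in CUMS and were at 0.225 RPKM or less in Control. Avp was at 0.14 and 0.145 RPKM. The summed level of the list came to 453.3 RPKM in Control against 333.2 RPKM in CUMS. The part of these genes in the values of the 7 members was not tested either.

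Other regions and cell types gave the following values. In these lists too, a gene that reached 0.5 RPKM in 1 group alone could only have the higher mean in that group. Of 10 olfactory bulb genes, 8 were lower by more than 1.5-fold, with a median log2 ratio of -1.05. Among them were Doc2g, a vesicle protein (12.95 and 4.045 RPKM), Th, the enzyme of dopamine synthesis (7.78 and 2.44 RPKM), Calb2, or calretinin (36.075 and 19.115 RPKM), and Pbx3, a homeobox gene (9.195 and 6.105 RPKM). Pbx3 lay at the limit, and 7 of 10 genes passed with the median of all ratios set to 0. Omp, the olfactory marker protein gene, was at 1.505 RPKM in Control and listed at 0 in CUMS. Their summed level came to 88.9 RPKM in Control against 46.4 RPKM in CUMS, and the part of these cells in the result for Zic1, Zic2 and the other members was not tested. Of 14 striatal genes 0 passed 1.5-fold, although 13 of 14 had a lower mean (median log2 ratio -0.29). Prkcd is also a thalamic gene, and of 8 thalamic genes 2 were lower by more than 1.5-fold, with a median log2 ratio of -0.16. Only Ramp3 among them reached 5 RPKM, with a log2 ratio of 0.25. Both lower genes, Gbx2 (0.555 and 0.33 RPKM) and Synpo2 (0.81 and 0.415 RPKM), reached 0.5 RPKM in Control alone and were named after their values had been seen. The most abundant thalamic gene of the list, Ramp3, was at 19.45 RPKM in Control and 23.16 RPKM in CUMS. Of 6 ependymal genes 5 were lower, with a median of -1.23, and Foxj1, the regulator of motile cilia, was at 4.35 and 1.945 RPKM. Of 4 choroid plexus genes 3 were lower (median -1.52), with sums of 6.13 and 3.32 RPKM over the list. Among the lower ones, Aqp1 (0.99 and 0.265 RPKM) reached 0.5 RPKM in Control alone, so the minimum set its direction. Values at the edge of detection went both ways. Ttr was at 0.055 RPKM in Control (1 fragment) and listed at 0 in CUMS, whereas Kcnj13 was listed at 0 in Control and was at 0.415 RPKM in CUMS (8 fragments), with an interval of the ratio that lay above 0. Both were named after their values had been seen.

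Zic1 is also expressed in the meninges. Of 14 genes of meningeal fibroblasts, 0 were lower and 3 were higher by more than 1.5-fold, with a median log2 ratio of 0.12. The 3 were the matrix gene Dcn (2.2 and 4.02 RPKM), Aldh1a2 (1.98 and 3.35 RPKM), which makes retinoic acid, and the transporter gene Slc22a6 (1.205 and 1.875 RPKM), all named after their values had been seen. The sum of the list came to 574.0 RPKM in Control against 648.6 RPKM in CUMS. Most of this sum was Ptgds (503.93 and 577.915 RPKM), so it describes 1 gene more than the list. The next most abundant genes, Igfbp2 (30.105 and 25.325 RPKM) and Igf2 (13.3 and 13.02 RPKM), were not higher in CUMS. Of 14 excitatory neuron genes of the neocortex, 12 had a higher mean in CUMS (median log2 ratio 0.31), and Emx1 passed 1.5-fold (9.28 and 14.515 RPKM). Of 11 cortical interneuron genes 0 passed 1.5-fold, with a median of 0.05. Oligodendrocyte genes had a median of -0.50 with 3 of 8 lower by more than 1.5-fold (2 with the median of all ratios set to 0), among them Mobp (82.22 and 51.47 RPKM) and Cldn11 (93.975 and 58.825 RPKM). Of 8 astrocyte genes and of 8 microglial genes 0 passed 1.5-fold, with medians of 0.03 and 0.01.

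**Figure D4:**
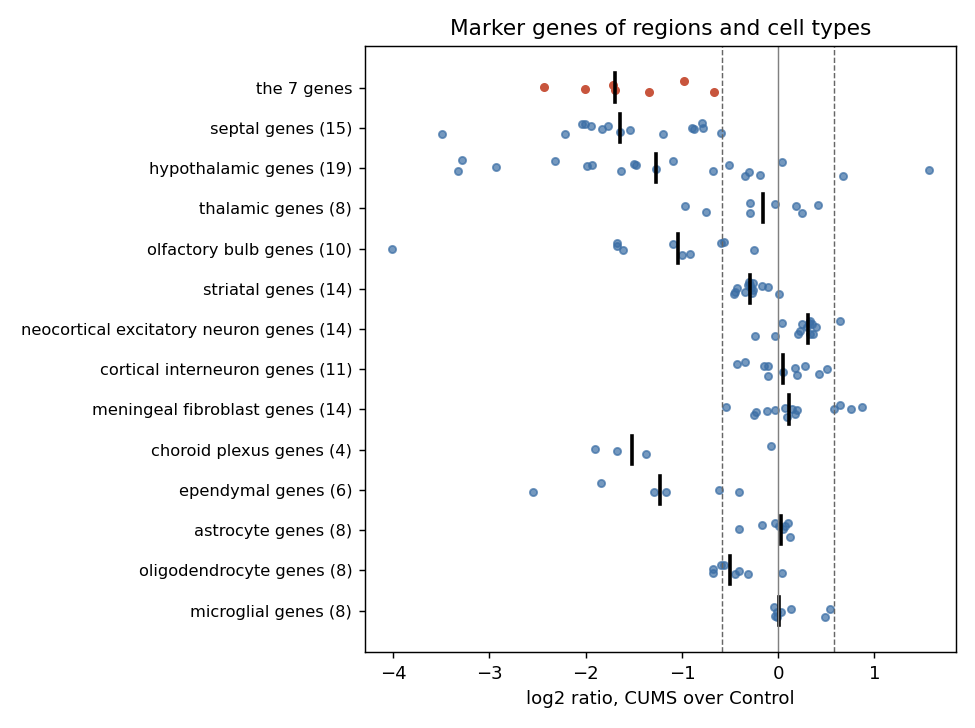
Log2 ratio of CUMS over Control for the 7 genes in red and for marker genes of regions and cell types in blue, with the number of genes that reached 0.5 RPKM in brackets, black bars for medians and dashed lines at 1.5-fold; means under 3 fragments were raised to 3. Septal genes lie to the left of the lower line in 15 of 15 cases as plotted (14 with the median of all ratios set to 0), and neocortical excitatory genes lie mostly to the right of 0.

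The genes most like the members were sought among those of at least 0.5 RPKM in both groups, by distance on the log2 scale from the median point of the members (17.5 RPKM in Control and 5.44 RPKM in CUMS). This likeness rests on only 2 group means and on the same contrast that chose the members. The nearest gene was Itih3, a hyaluronan-binding protein gene, at 19 RPKM in Control and 7.785 RPKM in CUMS (distance 0.53). The vesicle gene Doc2g followed at a distance of 0.61. Next were Ier2, an immediate early gene (14.235 and 7.905 RPKM), Gpx3, a secreted peroxidase gene (15.015 and 8.375 RPKM), and Hspb1, a small heat shock protein gene (11.67 and 7.005 RPKM). Ptch1, the receptor gene of sonic hedgehog, was at 12.285 and 7.535 RPKM. Cacng5 (10.74 and 5.52 RPKM), Whrn (15.01 and 8.8 RPKM), Ngb, or neuroglobin (10.685 and 4.795 RPKM), and Cdc42ep1 (10.785 and 6.38 RPKM) completed the 10 nearest genes. By gene annotation in the table, the 7 members shared few terms. Zic1 and Zic2 shared 5 terms, among them central nervous system development, and Prkcd and Ecel1 shared cation binding. No term was held by more than 2 members, and Igsf1, Baiap3 and Hap1 shared none with another member.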

How the data were processed

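Messenger RNA of the mPFC was measured in 4 libraries, 2 of Control and 2 of CUMS mice, grouped by the sample titles. According to the methods, paired reads came from an Illumina HiSeq and were trimmed with SolexaQA. It was aligned to mm10 with TopHat 1.0.12 and Bowtie 0.11.3, as the submitters' processing notes also list. Uniquely aligned reads were counted per gene, and the annotation and use of strand are not given in the sources used here. The deposited RPKM values had been averaged by the authors over the libraries of a group, with 0.01 in place of 0. The authors also deposited a log2 ratio and a NOISeq probability score per gene, which are their own comparison and were not used. The deposited gene length was used only to convert means into fragments.

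Some family members and 1 sequence comparison are not reported here. The members and the gene lists were chosen with earlier results of these data known. Ratios were taken without a pseudocount for genes whose larger group mean reached 0.5 RPKM, and 1.5-fold was the limit. A gene that reached a minimum in 1 group alone could only have the higher mean in that group. Fragments were estimated from the spacing of low products of mean and gene length. The step was 67.7 in Control and 67.2 in CUMS, and 86.5% and 86.2% of low products came within 0.15 steps of a whole number, against 29.6% and 33.4% with shuffled lengths. The shortest genes alone gave 7112376 and 7163324 fragments per library. Exact Poisson and Clopper-Pearson 95% intervals cover counting error only, and a floor of 3 fragments was used. Scripts (Python 3.11.15, scipy 1.17.1) were tested on simulated data. Beside the members, the text names their gene families, the 3 most abundant genes of each list, list genes past 1.5-fold at 5 RPKM or more, and the 10 genes nearest to the members. Alternatives were a fold of 2, other minimums, rescaling, a pseudocount of 1 RPKM, and means raised to 3 fragments.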

Additional observations from a re-analysis of the deposited data

How the results depend on the processing

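No paired analysis was possible because both libraries of a group were averaged before deposit, and for the same reason the replicate block and fits without 1 library were not run. Raising means under 3 fragments to 3 was chosen after seeing the data. The 7 members stayed lower in every setting, and all 7 passed 1.5-fold in each except the stricter fold of 2 (5 of 7). With a pseudocount of 1 RPKM the log2 ratio of Igsf1 was -1.80 in place of -2.43. Rescaling to an equal total or to a median ratio of 0 shifted every log2 ratio by -0.0062 or 0.015 and the latter took 1 gene each off the septal (14), olfactory bulb (7), oligodendrocyte (2) and Zic (2) counts. Of 324 values computed under alternatives, 25 moved by more than 1.5 times (counts) or out of the median counting interval (ratios). Medians near 0 changed sign for microglial genes (0.011 to -0.0080) at 5 RPKM or more and for Hap1 partners (-0.0011 to 0.014) with a median ratio of 0. The thalamic value at 5 RPKM or more (0.25 in place of -0.16) was that of Ramp3 alone.

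With at least 5 RPKM, 3 septal, 4 hypothalamic, 4 olfactory bulb, 1 neprilysin and 1 activin and TRH gene were lower. Among septal genes only Nts, Trpc4 and Ngfr reached this minimum. Each reached it through its Control mean alone, so the minimum set their direction. The counts of thalamic, ependymal and Gli genes were 0, but only Ramp3, Rarres2 and Glis2 of these lists reached it. The medians of protein kinase C and hypothalamic genes were then 0.12 and -0.68, and the ependymal value of -0.41 was that of Rarres2 alone. With a pseudocount of 1 RPKM, 9 septal, 1 neprilysin and 1 activin and TRH gene were lower, and 0 thalamic, Zic and Gli genes, and the medians of septal, olfactory bulb, hypothalamic and choroid plexus genes were -0.95, -0.67, -0.67 and -0.56. With a fold above 2, 5 olfactory bulb genes were lower, and 0 thalamic, oligodendrocyte, Zic (without the members), Gli and neprilysin genes. Without a minimum, 19 hypothalamic genes were lower.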
